A study of Mus musculus with 2 samples.

Results

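The let-7 and miR-98 family comprised 9 miRNA genes of the 1087 with an annotated hairpin, namely Mirlet7a, Mirlet7b, Mirlet7c, Mirlet7d, Mirlet7e, Mirlet7f, Mirlet7g, Mirlet7i and Mir98. Its members were chosen by symbol and not by their levels. They have 12 hairpins of the 1174 annotated, since let-7a, let-7c and let-7f each have a second copy that yields the same mature miRNA and was counted with the first. A read sequence (tag) belonged to the family when it matched a member hairpin perfectly over its whole length, which held for 157 distinct tags of the 8598 that matched any miRNA hairpin.

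The tags came from J1 mouse embryonic stem cells (mESCs), a cell line grown on gelatin in serum replacement medium with 1000 U/ml LIF. The cells were treated for 24 h with 1 μM PD0325901 (PD), a small molecule inhibitor of the kinase MEK in the MEK/ERK pathway, or with DMSO, the solvent (control). Each treatment was sequenced as 1 small RNA library made from the pooled RNA of 3 independent experiments, and the differences below therefore lack replicates. There were 18870345 clean reads for the control and 20944808 for PD, of which 11.6% and 10.1% matched miRNA hairpins. Levels are given in RPM, the reads for every 1000000 clean reads of the library, and fold means the PD level divided by the control level. Intervals (95%) and p-values cover the sampling of reads only, not the spread between cultures.

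The let-7 miRNAs bind target mRNAs through bases near their 5′ end, the seed, and repress genes of growth and of the embryonic state such as Hmga2 and Lin28a. In ESCs the RNA-binding protein Lin28 holds back the processing of let-7 precursors, and the mature miRNAs accumulate as cells differentiate. The hairpin of a precursor carries the let-7 miRNA on its 5′ arm (5p), and the strand from the 3′ arm (3p) is usually discarded.

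The mature 5p sequences of RefSeq (GRCm38.p6) are given first because the members differ by so few bases that their separate counts rest on them. Capitals mark the seed, bases 2 to 8.
let-7a: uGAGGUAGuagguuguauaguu
let-7b: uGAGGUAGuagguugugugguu
let-7c: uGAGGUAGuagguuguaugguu
let-7d: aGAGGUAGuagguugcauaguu
let-7e: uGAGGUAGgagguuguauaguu
let-7f: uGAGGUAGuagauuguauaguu
let-7g: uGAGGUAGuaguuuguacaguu
let-7i: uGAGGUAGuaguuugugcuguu
miR-98: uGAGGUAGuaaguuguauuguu

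All 9 members shared the seed GAGGUAG, and in 9 of 9 the most frequent 5p tag of these libraries was the RefSeq sequence. Counted from the 5′ end, with the base of let-7a first, let-7c differed from let-7a by A19G, let-7e by U9G and let-7f by G12A. The difference was A17G and A19G for let-7b, U1A and U16C for let-7d, G12U and U18C for let-7g, and G11A and A19U for miR-98. let-7i was the most distant member from let-7a, with G12U, A17G, U18C and A19U.

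Since several members lie 1 base apart, reads with the remaining bases at the separating position were counted. They reflect misreading to those bases only, since a misread to the other member's own base cannot be told apart from that member. At position 17, where let-7c and let-7b differ, the identical 22 nt tag of let-7c had 53547 reads in the control and that of let-7b 1246, while the other bases there had 1 and 5 reads. In PD the let-7c tag had 51135 reads, the let-7b tag 1324, and the other bases 2 and 4. Between let-7a and let-7e at position 9, the other bases had at most 5 reads in either library against 15050 and 17244 reads of let-7e. Over every position of let-7c, the most frequent single change that is not a member had 84 reads in the control and 107 in PD. The least abundant member, miR-98, is at least 2 bases away from let-7a, but 1 single-base variant of its own tag reached 11 reads in the control against 34 of the tag itself, so that its level is the least certain.

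The genomic arrangement gives the members in groups (GRCm38, GENCODE M21). Mirlet7a-1 (chr13:48538179-48538272), Mirlet7f-1 (chr13:48537829-48537917) and Mirlet7d (chr13:48536012-48536114) lie on the minus strand in exons of the lincRNA 6720427I07Rik, 262 and 1715 nt apart. Mirlet7c-2 (chr15:85706603-85706697) and Mirlet7b (chr15:85707319-85707403) lie 622 nt apart on the plus strand in exons of Lncppara. Mirlet7f-2 (chrX:151912346-151912428) and Mir98 (chrX:151913214-151913321) lie 786 nt apart on the plus strand in an intron of Huwe1. Mirlet7a-2 (chr9:41536716-41536811), Mirlet7c-1 (chr16:77599657-77599750) and Mirlet7e (chr17:17830352-17830444), also on the plus strand, lie in introns of 3110039I08Rik, Mir99ahg and Spaca6, each near hairpins of the miR-99/100 or miR-125 families. Mirlet7g (chr9:106178840-106178927, plus strand) lies in an intron of Wdr82 and Mirlet7i (chr10:122985640-122985724, minus strand) in an exon of the pseudogene D630033A02Rik, with no other annotated miRNA within 10 kb on the same strand.

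The family as a whole was abundant and differed little between the libraries. It had 187372 reads in the control (9929 RPM) and 196970 reads in PD (9404 RPM), each tag counted once. Its fold was 0.947 (0.941 to 0.953, 2-sided exact binomial test of the 2 libraries, p = 1.36e-63), a difference far beyond the sampling of reads but small in size. As a share of all reads that matched miRNA hairpins, the family went the other way, from 8.59% in the control to 9.33% in PD. The odds ratio of family reads against all other miRNA reads, PD over control, was 1.095 (1.088 to 1.102, Fisher's exact test, p = 5.64e-158). The direction for the family therefore depended on the denominator, and clean reads of 28 to 32 nt, longer than a miRNA, went from 7.11% to 17.0% of the library. Their part in the family's fold was not tested.

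The levels of the members spanned 3 orders of magnitude in both libraries. let-7c was the most abundant member of the control and the eighth most abundant of the 470 detected miRNAs (at least 1 RPM in either library), with 61065 reads (3236 RPM) against 56991 reads (2721 RPM) in PD. let-7f had 52651 reads (2790 RPM) in the control and 60174 reads (2873 RPM) in PD, so that let-7f stood above let-7c after PD and below it in the control. let-7a followed with 34104 reads (1807 RPM) and 35231 reads (1682 RPM). These 3 members made up most of the family's reads in both libraries.

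The middle of the order was held by let-7e, with 17868 reads (947 RPM) in the control and 20302 reads (969 RPM) in PD, and by let-7g, with 16181 reads (857 RPM) and 18894 reads (902 RPM). let-7d had 2787 reads (148 RPM) and 2906 reads (139 RPM), and let-7b 1711 reads (90.7 RPM) and 1679 reads (80.2 RPM). let-7i had 875 reads (46.4 RPM) in the control and 699 reads (33.4 RPM) in PD, and miR-98 had 44 reads (2.33 RPM) and 47 reads (2.24 RPM). The order of the 9 members was the same in both libraries except for let-7c and let-7f. The order is that of reads in 1 library per treatment, with no spread between samples to set beside it.

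**Figure D1:**
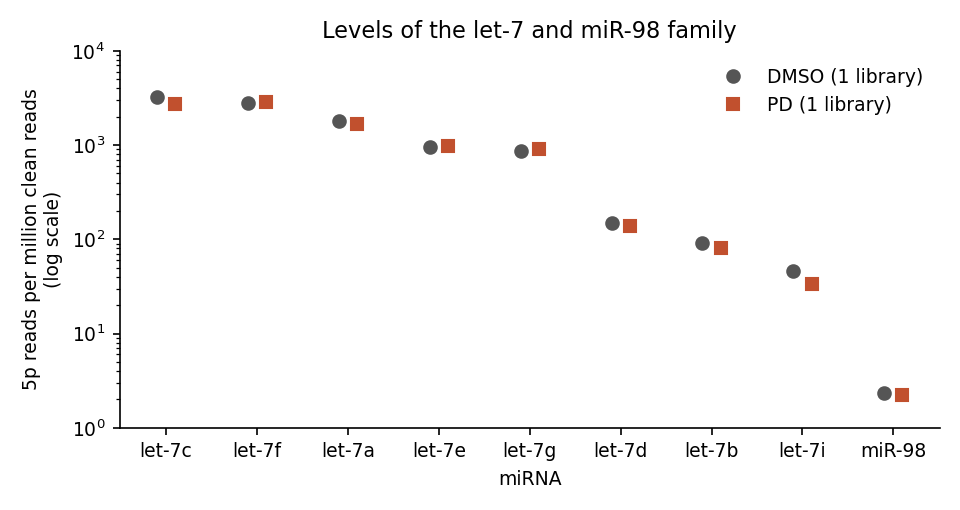
Level of each member's 5p miRNA in RPM of the clean reads, on a log scale, in the control library (DMSO, circles) and the PD library (squares), 1 library each and no error bars. The levels run from 3236 RPM for let-7c to 2.33 RPM for miR-98 in the control, and every member's pair of points lies close together.

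No member passed 1.5-fold in either direction. Of all 470 detected miRNAs, 62 were lower in PD by at least 1.5-fold (13.2%) and 28 were higher (5.96%), and of the 9 members 0 were lower and 0 higher. With the reads that match miRNA hairpins as the denominator the counts over all miRNAs were 26 lower and 45 higher, with clean reads of 20 to 24 nt 21 and 54, and with the normalization of edgeR or DESeq2 29 and 39, so that the split between the directions turned while the member counts stayed at 0. Exact binomial tests with Benjamini-Hochberg adjustment gave an adjusted p below 0.05 for 206 of the 470 miRNAs (43.8%) and for 7 of the 9 members. These calls depend on the number of reads as well as on the fold, so the 2 shares are not a like comparison. let-7f was called at a fold of 1.030 with 52651 and 60174 reads, and miR-98 was not at 0.962 with 44 and 47. The median log2 fold was −0.09 over the members and −0.16 over all detected miRNAs, with 6 members below the control and 3 above against 317 and 153 of all. Of the 9 members, 6 had a fold above 0.892, the median fold, which by definition splits all detected miRNAs evenly. That median itself depended on the denominator.

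The members did not move alike. let-7c had a fold of 0.841 (0.831 to 0.851, with an exact binomial adjusted p of 2.86e-193), the lowest among the 6 most abundant members. let-7f, nearly as abundant, had a fold of 1.030 (1.018 to 1.042, with an exact binomial adjusted p of 3.96e-06), and the counting intervals of the 2 did not overlap. let-7a, 1 base from each, lay between them at 0.931 (0.917 to 0.945, exact binomial adjusted p = 2.59e-20). let-7g was above the control at 1.052 (1.030 to 1.074, exact binomial adjusted p = 9.16e-06). let-7e was at 1.024 (1.003 to 1.045), with an exact binomial adjusted p of 0.0507.

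Among the rarer members, let-7d had a fold of 0.939 (0.892 to 0.990, exact binomial adjusted p = 0.0435) and let-7b one of 0.884 (0.826 to 0.946, exact binomial adjusted p = 0.00115). let-7i had the lowest fold of the family, 0.720 (0.651 to 0.796, exact binomial adjusted p = 4.44e-10). Over reads of 21 nt and longer the fold of let-7i was 0.941 (0.832 to 1.065), with 512 such reads in the control and 535 in PD. miR-98, with a fold of 0.962 (0.624 to 1.486, exact binomial adjusted p = 0.970), had too few reads to show a difference smaller than its interval.

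The direction of let-7a, let-7b, let-7c, let-7d and miR-98 depended on the denominator, while let-7e, let-7f and let-7g were above the control and let-7i below it under every denominator tried. With reads matching miRNA hairpins as the denominator, 7 members were above the control and 2 below (let-7c at 0.964 and let-7i at 0.825), and with clean reads of 20 to 24 nt 8 members were above and let-7i alone below, at 0.872. The sizes of the members relative to each other, such as let-7c below let-7f, do not depend on the denominator.

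**Figure D2:**
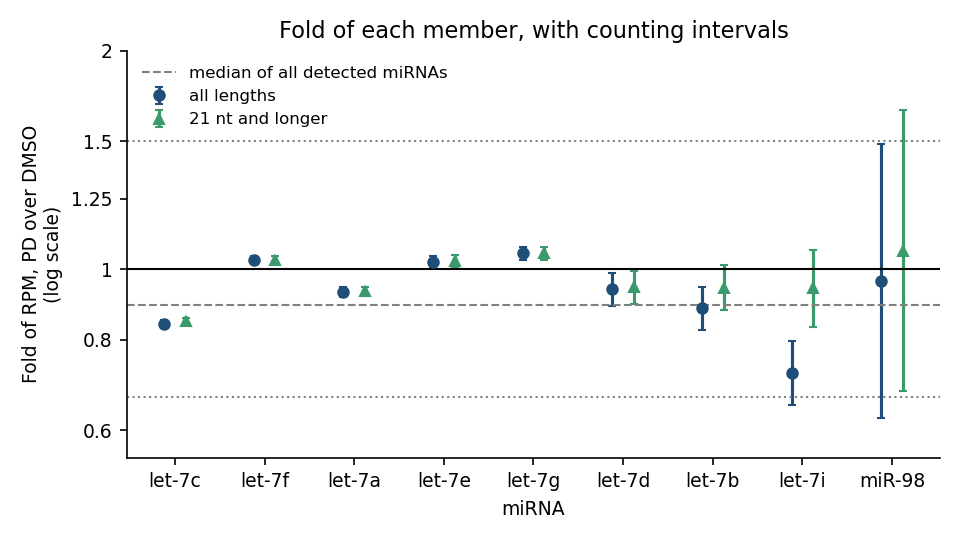
Fold of RPM in PD over the control for each member's 5p reads on a log scale, over all lengths (circles) and over reads of 21 nt and longer (triangles), with 95% counting intervals from 1 library per treatment. The solid line marks no difference, the dashed line the median of all 470 detected miRNAs (0.892) and the dotted lines 1.5-fold either way. let-7i moves from 0.720 to 0.941 and let-7b from 0.884 to 0.944 when short reads are left out.

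Short reads of the family were fewer in PD, although most of its reads had the full length in both libraries. Reads of 22 nt made up 90.5% of the members' 5p reads in the control and 91.7% in PD, but only 44% and 60.9% of those of let-7i and 72.8% and 78.9% of those of let-7b. Family reads of 18 to 20 nt numbered 1983 in the control (1.06%) and 902 in PD (0.458%), a fold of 0.410 (0.378 to 0.444). Family reads of 21 nt and longer had a fold of 0.953. By single length, the family's fold was 0.421 at 18 nt, 0.327 at 19 nt, 0.470 at 20 nt, 0.795 at 21 nt, 0.960 at 22 nt, 0.954 at 23 nt and 0.939 at 24 nt. The few family reads over 24 nt went the other way, with 16 in the control and 48 in PD (a fold of 2.70, interval 1.51 to 5.10). Of these, let-7a had 7 and 18, and let-7e 3 and 18. Folds also rose with length outside the family. Other miRNA hairpins had a fold of 0.939 at 25 nt, 1.14 at 26 nt, 1.36 at 27 nt, 1.46 at 28 nt and 1.61 at 29 nt. All clean reads had folds of 0.948, 1.11, 1.21, 1.61 and 2.39 at the same lengths.

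Short reads were also lower in PD outside the family. All other miRNA hairpins together had 204893 reads of 18 to 20 nt in the control (10.3%) and 112666 in PD (5.89%), a fold of 0.495, against 0.907 for their longer reads. Among miRNAs with at least 100 reads of each class over both libraries, the fold of short reads was below that of long reads in 6 of 6 members and in 106 of 132 other miRNAs. The median ratio of the 2 folds was 0.450 for the members and 0.668 for the others. The log2 ratios of the others ran from −2.18 to 0.95, a range that contains the members' −1.48 to −0.72. let-7d, let-7g and miR-98 had too few short reads to be included. All clean reads of 18 nt, whatever their source, had a fold of 1.08, those of 19 nt 0.917 and those of 20 nt 0.770, the last below the 0.818 of 22 nt.

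**Figure D3:**
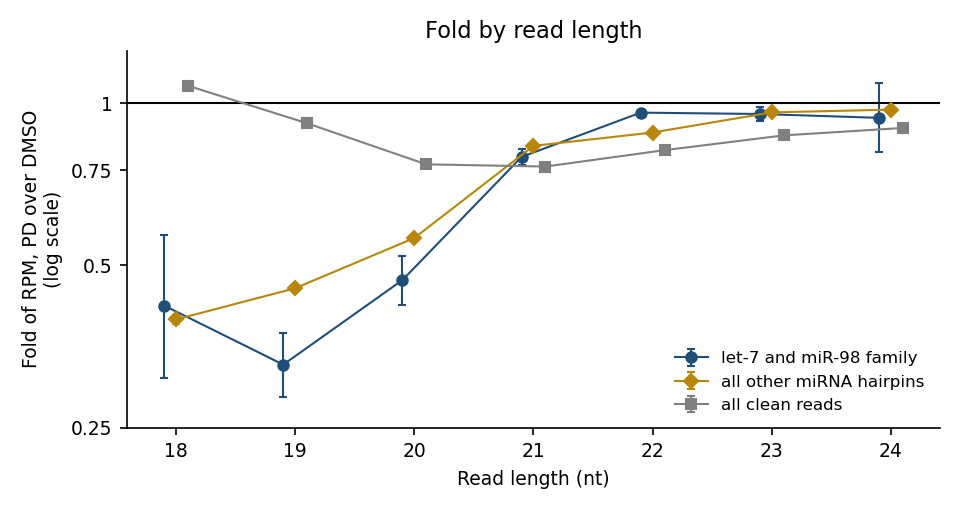
Fold of RPM in PD over the control by read length (18 to 24 nt) on a log scale for reads of the family (circles), of all other miRNA hairpins (diamonds) and for all clean reads (squares), with 95% counting intervals. Both miRNA lines lie below 0.6 from 18 to 20 nt and reach 0.960 and 0.882 at 22 nt, while all clean reads are at 1.08 at 18 nt and 0.770 at 20 nt.

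Members differed widely in how many short reads they had. In let-7i, 363 of 875 reads were 18 to 20 nt long in the control (41.5%, interval 38.3 to 44.8) and 164 of 699 in PD (23.5%, interval 20.5 to 26.7). In let-7b the share was 9.82% (8.50 to 11.3) in the control and 3.75% (2.94 to 4.77) in PD, and in let-7c 1.57% (1.47 to 1.67) and 0.676% (0.612 to 0.746). The other members with over 1000 reads had shares below 1% in both libraries. let-7g was the exception in direction, with 16 short reads in the control and 26 in PD, a fold of 1.46 whose interval (0.756 to 2.92) includes no difference.

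For the 3 members with over 100 short reads and the largest short shares, the most frequent tag of 18 to 20 nt is shown (seed in capitals), together with the 19 nt tag of let-7c and the tag that let-7a and let-7c share. Each carries the whole seed and lacks bases of the 3′ end.
let-7i, 19 nt: uGAGGUAGuaguuugugcu
let-7b, 19 nt: uGAGGUAGuagguugugug
let-7c, 20 nt: uGAGGUAGuagguuguaugg
let-7c, 19 nt: uGAGGUAGuagguuguaug
let-7a and let-7c, 18 nt: uGAGGUAGuagguuguau

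The 19 nt tag of let-7i had 223 reads in the control and 97 in PD, a fold of 0.392 (0.306 to 0.500). The 22 nt reads of let-7i, by contrast, numbered 385 in the control and 426 in PD, a fold of 0.997 (0.867 to 1.147). The 19 nt tag of let-7b had 105 and 35 reads (a fold of 0.300, interval 0.199 to 0.444), and the 20 nt tag of let-7c had 556 and 243 reads (a fold of 0.394, interval 0.337 to 0.459). The 19 nt tag of let-7c, with 356 and 109 reads, had a fold of 0.276 (0.221 to 0.343). These displayed shorter forms of 3 members were lower in PD by more than 1.5-fold, while their full-length forms were not. In the remaining members, the most frequent tag of 18 to 20 nt had a fold of 0.467 in let-7a and 0.568 in let-7e. It was 0.169 in let-7d, on 16 and 3 reads. In let-7f it was 0.751 (0.532 to 1.057) and in let-7g 1.32 (0.655 to 2.74), so neither was lower by 1.5-fold. That of miR-98 had 2 and 0 reads. The 18 nt tag ends before position 19, the only base that separates let-7a from let-7c, and was kept apart from both, with 63 reads in the control and 24 in PD. All 4 tags that these members shared had 67 reads in the control and 24 in PD, too few to move either member's level.

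**Figure D4:**
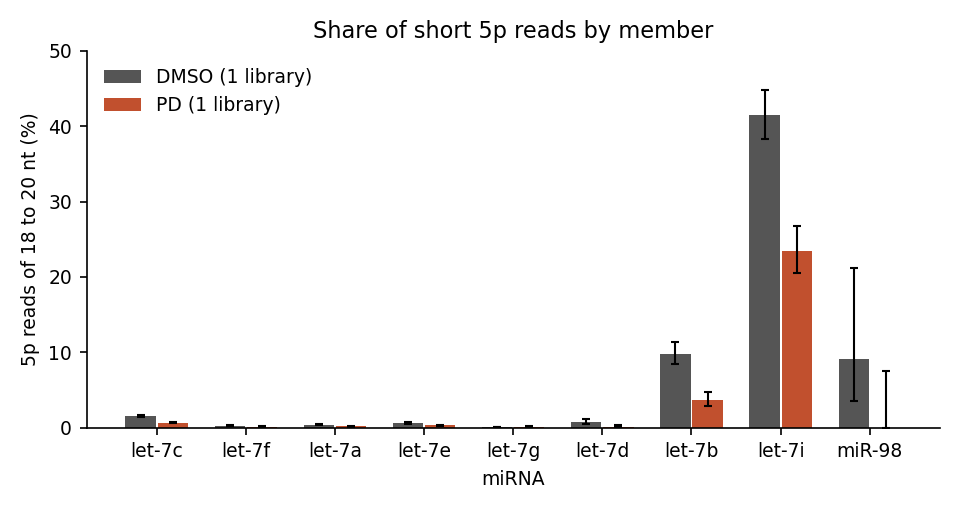
Percentage of each member's 5p reads that were 18 to 20 nt long in the control library (DMSO) and the PD library, with 95% Wilson intervals, 1 library each. let-7i is the highest, with 41.5% in the control and 23.5% in PD, followed by let-7b with 9.82% and 3.75%, while the 9.09% of miR-98 in the control rests on 4 reads.

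The 5′ end, which sets the seed, was nearly invariant. Between 97.7% and 100% of a member's 5p reads began at the first base of the mature miRNA in each library. let-7c had the most reads that began 1 base late, 1397 in the control (2.29%) and 1243 in PD (2.18%), against at most 0.447% in any other member. Such a late start was not particular to let-7c, since 30 of 140 other miRNAs with at least 1000 reads had a larger share (median 0.341%). Reads that began 1 base early were most frequent in let-7d (30 reads, 1.08%, in the control and 18 reads, 0.619%, in PD) and let-7g. In let-7g they numbered 100 in the control (0.618%) and 170 in PD (0.900%), a fold of 1.53 (1.19 to 1.98), above that of the let-7g reads with the main start (1.05). The main tags of these shifted forms are shown with their own bases 2 to 8 in capitals, since the shift changes them.
let-7c, 1 base late: gAGGUAGUagguuguaugguu
let-7g, 1 base early: cUGAGGUAguaguuuguacaguu

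The late tag of let-7c had 1298 reads in the control and 1142 in PD (fold 0.793; 0.731 to 0.859), close to the fold of let-7c itself. The early tag of let-7g had 83 and 157 reads (fold 1.70; 1.30 to 2.25). It was chosen for display after its values were seen.

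The 3p strand was almost absent, which left the family's reads on the 5′ arm. It had 22 of 187371 arm-assigned reads in the control (0.0117%, exact interval 0.0074 to 0.0178) and 22 of 196969 in PD (0.0112%, interval 0.0070 to 0.0169). Among 144 other miRNA genes with at least 1000 reads, the arm with fewer reads had a median share of 2.71%, and 12 had a smaller share than the family. let-7d held most of the 3p reads, 13 in the control (0.464% of its reads) and 17 in PD (0.582%, Fisher's exact test, p = 0.586), and was the only member with the 10 reads needed for a test. Its 3p miRNA, with bases 2 to 8 in capitals, had 11 reads of the full sequence in the control and 12 in PD.
let-7d 3p: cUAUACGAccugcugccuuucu

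miR-98 had 3 3p reads in the control and 1 in PD, let-7e had 1 and 3, let-7a 1 and 0, and let-7i 0 and 1. Another 4 reads in the control and 0 in PD were 3p tags that let-7a and let-7c share, so that these members cannot be told apart there. Of 3p tags of their own, let-7b, let-7c, let-7f and let-7g had 0 in both libraries, where 3 reads would be 0.159 RPM in the control and 0.143 RPM in PD.

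Bases added after the 3′ end without a template in the hairpin were counted apart from the member levels. Tags with 1 to 3 added A bases made up 3.92% of the family's reads with the main start in the control and 3.98% in PD. The other members with over 100 reads lay between 2.49% and 4.73%, but let-7b had 11.8% (10.4 to 13.2) in the control and 11.4% (10.1 to 12.9) in PD. After the full-length end, added U can be read only where the hairpin does not go on with U. The 4 bases that follow the mature miRNA show this (capitals).
let-7e: ugagguaggagguuguauaguuGAGG
let-7i: ugagguaguaguuugugcuguuGGUC
let-7a-1: ugagguaguagguuguauaguuUUAG

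In let-7e, which goes on with G, added U made up 9.58% (9.18 to 9.98) of reads in the control and 9.85% (9.47 to 10.2) in PD, and in let-7i 6.94% (5.50 to 8.72) and 5.74% (4.31 to 7.62). These intervals of the libraries overlap for each member. miR-98, which also goes on with G, had added U in 2 of 47 reads in the control and 3 of 50 in PD. Where the next base is U, added U was counted only when it did not match the hairpin. It then made up 1.92% of let-7b reads in the control and 2.26% in PD, and at most 0.0932% in let-7a, let-7c, let-7d and let-7g. In let-7a, let-7b, let-7c, let-7d and let-7g the next base is U, so that a U added to the full-length end cannot be told apart from a longer product. For let-7f the same holds for Mirlet7f-2, whose copy-specific tags had 933 reads in the control and 1200 in PD (fold 1.16; 1.06 to 1.26), against 272 and 295 for Mirlet7f-1 (fold 0.977; 0.826 to 1.16). Nearly all let-7f reads, 51446 and 58679, matched both copies, and likewise 33979 and 35113 of let-7a and 60909 and 56845 of let-7c, so these copies could not be separated.

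Of the 4 hairpins near a member but outside the family, the pair beside Mirlet7e was well covered and the other pair was not. Beside Mirlet7e, miR-99b-5p had 6188 reads in the control (328 RPM) and 7021 in PD (335 RPM), a fold of 1.022 (0.988 to 1.058) next to 1.024 for let-7e. miR-125a-5p, from the same intron of Spaca6, had 785 and 697 reads (fold 0.800; 0.721 to 0.887). Their 3p strands had 696 and 711 reads for miR-99b and 44 and 47 for miR-125a. The neighbours of Mirlet7c-1 and Mirlet7a-2 were near absent, with 4 and 1 reads of miR-99a-5p and 6 and 14 reads of miR-100-5p. Mir1961 and Mir7k, the other annotated hairpins with a mature sequence that holds the let-7 seed, had 0 reads in both libraries.

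Markers of the cell type were present throughout. The 14 hairpins of the miR-290 and miR-302 clusters of mESCs summed to 33363 RPM in the control and 28670 RPM in PD. Most of these reads came from the miR-290 cluster, whose strands lay on both sides of the control. For example, miR-293-3p had a fold of 0.833 and miR-292-5p one of 1.102. All detected miR-302 strands were above the control, including miR-302a-5p (171 and 334 reads, a fold of 1.76, interval 1.46 to 2.13). miR-302d-3p had 46 and 119 reads (a fold of 2.33, interval 1.65 to 3.35). The 6 neural hairpins of miR-124 and miR-9 summed to 278 and 493 RPM, the 4 fibroblast hairpins of miR-199 and miR-214 to 92.6 and 61.9 RPM, and the blood hairpins, 2 of 3 with reads, to 16.5 and 15.9 RPM. The higher neural sum in PD came from miR-124, whose miR-124a-3p had 4815 reads in the control and 9885 in PD (a fold of 1.85, interval 1.79 to 1.91), while miR-9-5p had 328 and 287 reads (a fold of 0.788, interval 0.670 to 0.926) and miR-9-3p 67 and 77. The part of these markers in the levels of let-7 was not tested.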

How the data were processed

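Small RNA from J1 mESCs was sequenced as 1 library each for DMSO (control) and PD. According to their methods, the authors gel-purified small RNA, removed low-quality, adapter and contaminant reads and reads under 18 nt, and deposited for each tag its raw count of clean reads. The labels instead name a TruSeq RNA kit on total RNA, and the deposited tags of 18 to 44 nt were treated as small RNA. The labels name the build mm9, but the deposited counts carry no coordinates. Tags were matched with Python 3.11.15 to GENCODE M21 hairpins (GRCm38), perfectly and over their whole length. A tag counted for an arm when it overlapped the RefSeq mature sequence by at least 16 nt (where RefSeq lacked one, the most frequent tag) and matched hairpins of 1 miRNA only. RefSeq held the 5p sequence of 9 of 9 members. Counts were scaled to RPM, and miRNAs that reached 1 RPM in the control, PD or both were compared. Fold changes have Clopper-Pearson intervals and 2-sided exact binomial tests (SciPy 1.17.1), Benjamini-Hochberg adjusted over all 470 detected miRNAs. Shares have Wilson intervals unless named exact. Replicate models could not be fitted. edgeR 4.0.16 and DESeq2 1.42.0 in R 4.3.3 gave alternative scalings only. The matching and the test were checked on simulated data. All members, hairpins with the same seed and hairpins within 10 kb on the same strand were named. The members and lists were chosen with earlier results of these data known. Reads carry no molecular identifiers, so intervals cover counting error only.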

Additional observations from a re-analysis of the deposited data

How the results depend on the processing

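No member passed 1.5-fold under any of 11 alternatives, and of 99 member values 63 lay within the counting interval of the reported fold and 36 outside it. The family's fold of 0.947 became 1.086 with reads matching miRNA hairpins as the denominator, 1.147 with clean reads of 20 to 24 nt, 1.060 with the TMM normalization of edgeR, 1.061 with the size factors of DESeq2 and 0.960 with tags identical to the mature miRNA. Among the 470 detected miRNAs, the count lower by 1.5-fold (62) became 26, 21, 29 and 29 under these 4 denominators, and 15 at 2-fold. It was 41 of 455 with tags of 21 nt or more, 286 of 1087 without the filter on low expression and 25 of 249 at 10 RPM. The count higher (28 of 470) became 45 and 54 under the first and second denominator and 10 at 2-fold. It was 250 of 1087 without the filter and 7 of 249 at 10 RPM. The shares of 3p reads, of the main start and of 22 nt reads stayed within their intervals under the alternatives run. let-7i was at 0.997 with identical tags only, and let-7c then had the lowest fold, 0.860. The median log2 fold of all detected miRNAs moved from −0.16 to 0.03, 0.11, 0.00 and 0.00 under the 4 denominators. The last 2 values follow from the methods, since TMM and DESeq2 centre the folds of these same miRNAs. No paired analysis was possible because each treatment had 1 library, and no replicate could be left out. With 44 and 47 reads, miR-98 was limited by depth.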
